A study of Canis lupus familiaris with 12 samples.

Results

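The SLC25 family is the set of carriers that move metabolites, nucleotides and cofactors across the inner mitochondrial membrane, and its expression was compared between Madin-Darby canine kidney (MDCK) cells grown as cysts and as flat sheets. Members were chosen by gene symbol: every probe set whose single gene symbol began with SLC25A or was UCP1, UCP2, UCP3, MTCH1 or MTCH2. This gave 46 of 15115 named genes, measured by 96 of 42924 tested probe sets. All arrays came from the MDCK II tet-off cell line, which derives from dog kidney tubules and was kept in G418, and the labels state no transgene and no drug that differed between the groups. The 3D group (6 arrays) held multicellular cysts and the 2D group (6 arrays) held flat sheets, both from type I collagen culture collected on day 8. The labels call the arrays biological replicates, and each received pooled RNA of 4 samples, so the spread between arrays is a spread between pools, and p-values leave out the spread between single cultures. The 2D culture is the control condition of the study.

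Carriers of this family share a common fold, built from a repeated pair of membrane helices, and most alternate between an open state facing the intermembrane space and one facing the matrix. They are made in the cytosol from nuclear genes and are inserted into the inner membrane by the TIM22 complex. In kidney tubule cells they supply ATP to the cytosol, carry reducing equivalents inward, and feed amino acid, haem and one-carbon metabolism. The uncoupling proteins are relatives that can let protons pass, and MTCH1, MTCH2 and SLC25A46 are divergent members found in the outer membrane.

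The family did not shift as a whole. In 3D, 11 members were higher, 11 were lower and 24 did not pass (limma, adjusted p under 0.05 over all probe sets). Called members made up 47.8% of the family, beside 42.7% of all genes, of which 19.8% were higher and 22.9% lower. With quantile normalization the split was 8 higher and 15 lower, beside 2625 higher and 3385 lower of all 15115 genes. The median log2 fold change was -0.07 among members and -0.05 among all genes. Most changes were small: with a change of at least 1.5-fold 4 members passed, 2 higher and 2 lower (4.35% each). By the same measure 5.83% of all genes passed, 725 higher and 156 lower of 15115. Among the 4 members, SLC25A43 and SLC25A33 were raised, and SLC25A21 and SLC25A30 lowered. The 6 and 6 values did not overlap for 8 higher members (17.4%, beside 13.2% of genes) and for 5 lower members (10.9%, beside 9.49%).

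**Figure D1:**
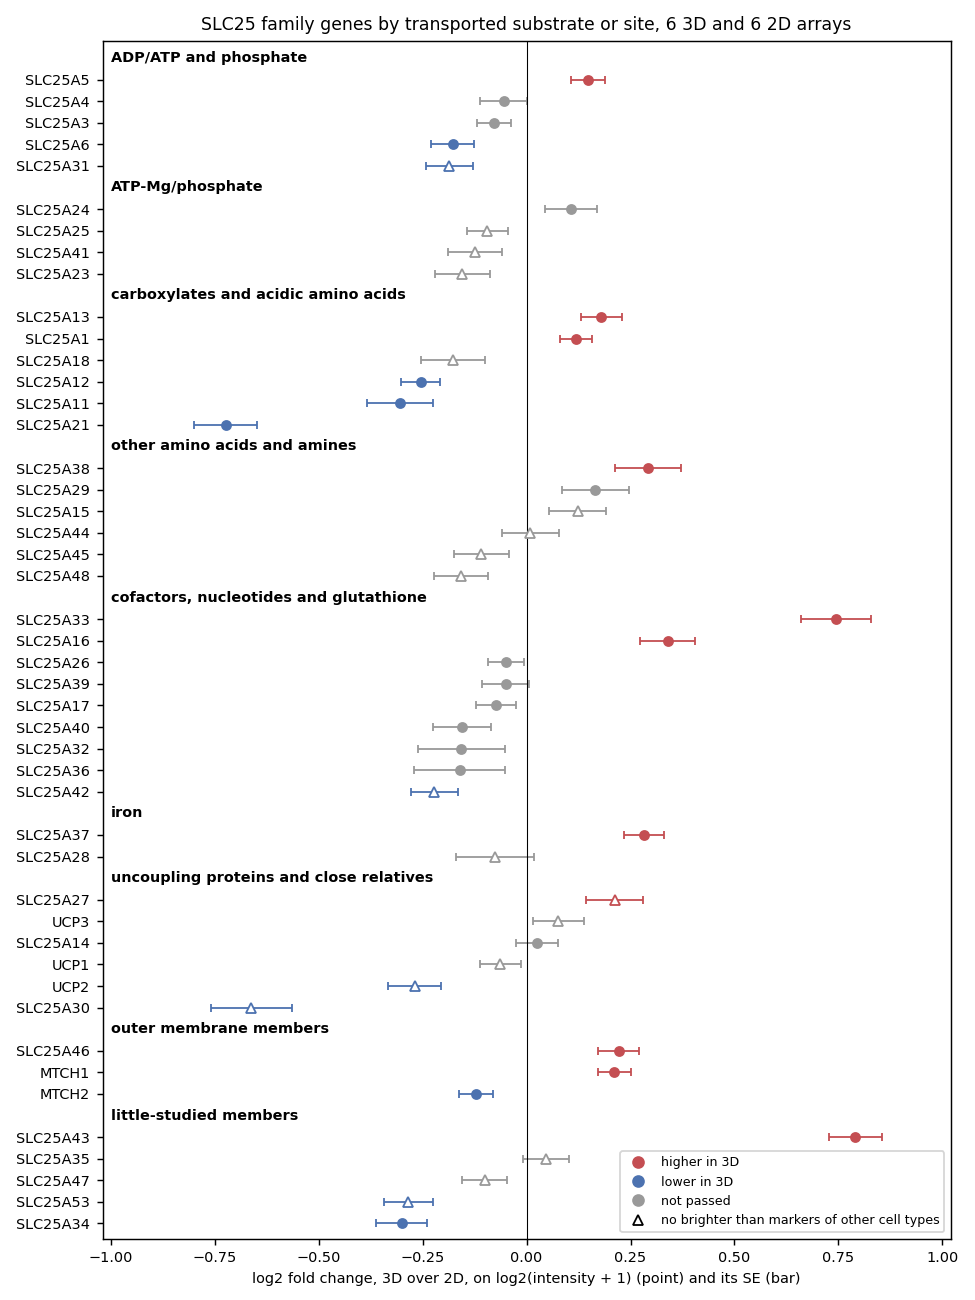
Log2 fold change of 3D over 2D (point) with its standard error (bar) for the 46 members, 6 arrays per group, grouped by substrate or site; red members were higher, blue lower and grey did not pass, and open triangles mark members no brighter than the markers of other cell types. Both directions occur in most groups, and SLC25A43, SLC25A33, SLC25A21 and SLC25A30 lie farthest from 0.

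Levels are log2(intensity + 1) of a probe set, and levels of different probe sets cannot be set against each other. Where 3 log2 values are given for a group, they are its lowest, median and highest over the 6 arrays. A level above the controls does not by itself show expression here. Bacterial and tag control probe sets, which match no dog gene, had a 95th percentile of 5.71 on the log2 scale, and 44 members lay above that of each array on all 12 arrays. Yet 9 markers of fibroblasts, leukocytes and endothelium, such as VWF and CD3E, lay between 5.18 and 7.39. On the same scale the epithelial markers KRT18 and EPCAM exceeded 13. KRT8 lay at 12.26 to 13.09, CDH16 at 10.44 to 10.89 and PAX8 at 8.43 to 9.05. The epithelial marker CDH1 reached down into the range of those 9 markers (6.65 to 8.13 in 3D, 6.23 to 7.11 in 2D). Of the 9 markers, 0 were higher in 3D and 4 lower by limma. The brightest of those 9 markers averaged 7.18, and 19 members averaged no more than that. These are called dim below, a rough division made after the values were seen. It sets different probe sets side by side and CDH1 crosses it, so a dim level does not show that a gene is silent. Among dim members 1 was higher and 5 were lower (26.3%), beside 8.46% higher and 23.2% lower of all dim genes. Among the 27 brighter members 10 were higher (37.0%) and 6 lower (22.2%), beside 32% and 22.6% of brighter genes. In bulk RNA, fewer cells that express a gene and less of its RNA per cell cannot be told apart.

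**Figure D2:**
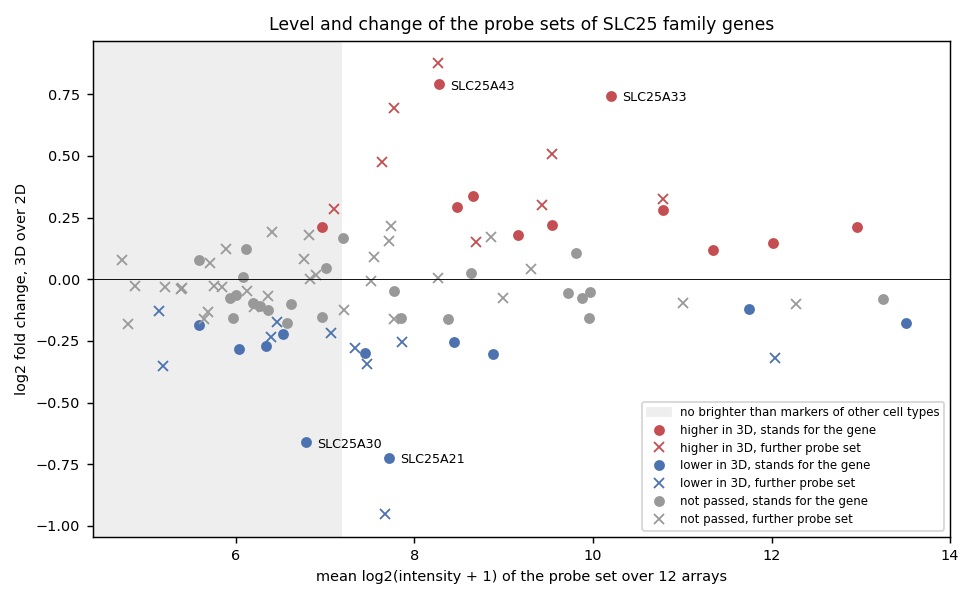
Mean level over 12 arrays (log2(intensity + 1), horizontal) and log2 fold change of 3D over 2D (vertical) for the 96 probe sets of the family; circles stand for the gene, crosses are further probe sets, and the grey band ends at the brightest marker of other cell types. Within the band 10 called probe sets are lower and 2 higher, and to its right 17 are higher and 11 lower.

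A ratio of RNA control signals differed between the cultures. It is the log2 ratio of 5-prime to 3-prime signal from the GAPDH and actin controls of the array, which can reflect RNA integrity. The ranges overlapped, at -0.88 to -0.40 in 3D and -1.09 to -0.75 in 2D. Its mean was -0.54 ± 0.17 (SD) over the 6 3D arrays, against -0.91 ± 0.14 over the 6 2D arrays (exact two-sided permutation p = 0.00866). With this ratio in the model, 5 members were higher and 4 lower. Of all 15115 genes, 1907 were higher and 1259 lower with it, in place of 2988 and 3465. SLC25A43, SLC25A33, SLC25A37 and MTCH1 were higher and SLC25A21, SLC25A30 and MTCH2 lower with and without the ratio. The other called members, 7 higher and 8 lower, did not pass with it, which holds for each of them where it is described below. Of these 15, 5 had a log2 fold change at least as large with the ratio: SLC25A1 (0.17), SLC25A5 (0.15), SLC25A46 (0.23), SLC25A11 (-0.38) and SLC25A42 (-0.27). In 10 it was smaller, and in SLC25A16 (0.09), SLC25A6 (-0.07), SLC25A34 (-0.13) and SLC25A53 (-0.12) it was the most reduced. SLC25A36 (log2 fold change -0.61, standard error 0.11, limma adjusted p = 0.000755) and SLC25A44 (0.27, standard error 0.07, limma adjusted p = 0.0177) passed only with it. Of the 46 members, 42 had the same sign in both fits.

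**Figure D3:**
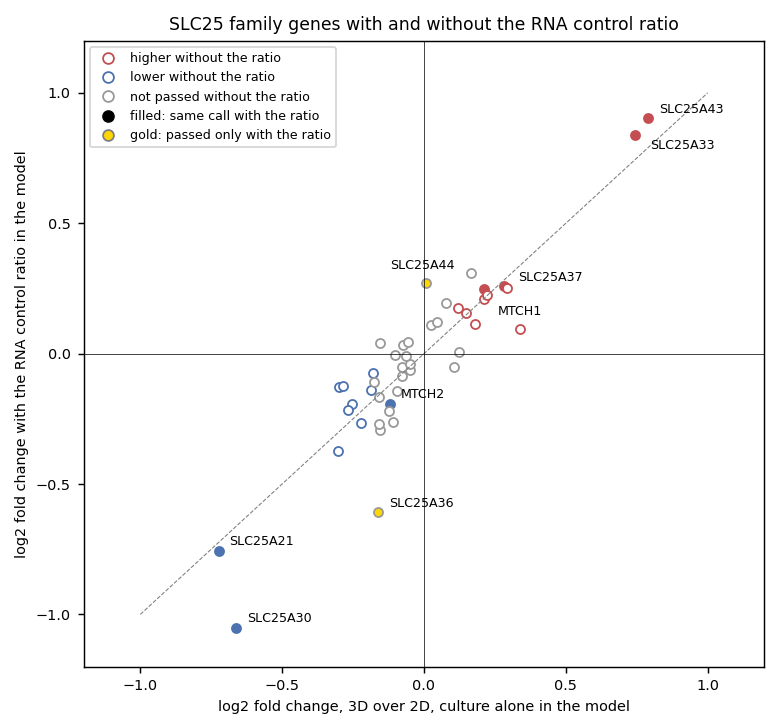
Log2 fold change of 3D over 2D for the 46 members with culture alone in the model (horizontal) and with the RNA control ratio added (vertical); filled points have the same call in both fits, open ones do not pass with the ratio and gold ones pass only with it. SLC25A43 and SLC25A33 lie at the upper right and SLC25A21 and SLC25A30 at the lower left of the dashed line of equal values.

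The ADP/ATP carriers exchange ATP made in the matrix for cytosolic ADP, and their isoforms moved in different directions. SLC25A5, the isoform typical of dividing cells, had log2 values of 12.07, 12.09 and 12.14 in 3D, against 11.88, 11.95 and 12.005 in 2D. All 6 3D arrays lay above all 2D arrays, a mean rise of 0.15 (standard error 0.04, limma adjusted p = 0.00973). SLC25A6, a widely expressed isoform, had 13.34, 13.40 and 13.57 in 3D, against 13.45, 13.62 and 13.67 in 2D. Its groups overlapped, and it was lower in 3D with a mean difference of -0.18 (standard error 0.05, limma adjusted p = 0.0129). Its further probe set did not overlap and had -0.32. SLC25A4, the heart and muscle isoform, had 9.65, 9.68 and 9.79 in 3D, against 9.60, 9.74 and 9.90 in 2D, and did not pass (log2 fold change -0.06, standard error 0.06, limma adjusted p = 0.445). SLC25A31, an isoform known from testis, exceeded the control level on 0 of 6 3D arrays and 1 of 6 2D arrays, so no fold is given although it counts among the lower members. SLC25A5 was measured by 1 probe set whose suffix, _s_at, marks possible hybridisation with relatives, so which isoform it reports is uncertain.

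SLC25A3, the phosphate carrier that supplies ATP synthase and also brings copper into the matrix, had 13.17, 13.21 and 13.22 in 3D, against 13.17, 13.30 and 13.33 in 2D. The groups overlapped and the change did not pass (log2 fold change -0.08, standard error 0.04, limma adjusted p = 0.144). It did pass with quantile normalization (log2 fold change -0.12, limma adjusted p = 0.0205), with the trend and robust prior (limma adjusted p = 0.0374) and with the mean of its probe sets (limma adjusted p = 0.0436). None of the 4 ATP-Mg/phosphate carriers, which load or unload the adenine nucleotide pool of the matrix, passed, where 42.7% of all genes did. SLC25A24 had a log2 fold change of 0.11 (standard error 0.06), and SLC25A23, SLC25A25 and SLC25A41, all dim, had -0.15, -0.09 and -0.12. SLC25A23 passed as lower without 3D replicate 3 (limma adjusted p = 0.0110), and 2 of its 3 probe sets were called lower, of which the dimmest exceeded the control level on 0 arrays.

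Carriers of carboxylates and acidic amino acids held the most calls, with 2 higher, 3 lower and 1 not passed of 6. That is 83.3% called, beside 42.7% of all genes, and with the RNA control ratio in the model only SLC25A21 passed. SLC25A21, the oxodicarboxylate carrier that brings 2-oxoadipate from lysine and tryptophan breakdown into the matrix, had the deepest fall of the family by its standing probe set. Its log2 values were 7.16, 7.39 and 7.46 in 3D, against 7.77, 8.11 and 8.25 in 2D. Every 3D array lay below every 2D array, by 0.605 times on average (log2 fold change -0.72, standard error 0.08, limma adjusted p = 1.38e-06). A further probe set of SLC25A21 fell by 0.95 on the log2 scale, likewise without overlap.

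Both carriers that the malate-aspartate shuttle needs for NADH transfer were measured. SLC25A11, which exchanges 2-oxoglutarate for malate, had 8.46, 8.78 and 8.83 in 3D, against 8.88, 9.001 and 9.35 in 2D. The groups were separate (log2 fold change -0.30, standard error 0.08, limma adjusted p = 0.00719), and all 3 of its probe sets were lower. SLC25A12, an aspartate/glutamate exchanger typical of brain and muscle, had 8.27, 8.32 and 8.37 in 3D, against 8.46, 8.57 and 8.70 in 2D. It was lower without overlap (log2 fold change -0.26, standard error 0.05, limma adjusted p = 0.000538). Its paralogue SLC25A13, called citrin and known as the isoform of liver, went the other way, with 9.15, 9.26 and 9.40 in 3D, against 9.03, 9.08 and 9.11 in 2D. It was higher by 0.18 (log2 fold change, standard error 0.05, limma adjusted p = 0.00868), a call that ended with quantile normalization (0.10, limma adjusted p = 0.110). SLC25A13 was measured by 1 probe set, with the suffix _s_at.

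SLC25A1, the citrate carrier that exports citrate for lipid synthesis, had 11.38, 11.39 and 11.46 in 3D, against 11.24, 11.29 and 11.33 in 2D. The groups did not overlap, although the difference was small (log2 fold change 0.12, standard error 0.04, limma adjusted p = 0.0255). A dimmer probe set of the same gene rose by 0.30 (standard error 0.06, limma adjusted p = 0.00152), likewise without overlap. The SLC25A1 call ended with quantile normalization (log2 fold change 0.07, limma adjusted p = 0.182). SLC25A18, a glutamate carrier, was dim and did not pass (log2 fold change -0.18, standard error 0.08, limma adjusted p = 0.0781). It passed as lower when 2D replicate 3 (limma adjusted p = 0.0447) or 3D replicate 1 (0.0210) was left out.

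Among carriers of other amino acids and amines, 1 of 6 was called (16.7%, beside 42.7% of all genes). SLC25A38, the glycine carrier that serves haem synthesis, had 8.45, 8.64 and 8.70 in 3D, against 8.15, 8.28 and 8.61 in 2D. The ranges overlapped because 1 3D array lay below the highest 2D arrays, and the gene was higher in 3D by 0.29 on the log2 scale (standard error 0.08, limma adjusted p = 0.00849). Of its 5 probe sets, 3 were higher and 0 lower. SLC25A15, the ornithine carrier of the urea cycle, was dim, with 5.91, 6.24 and 6.28 in 3D, against 5.86, 6.08 and 6.14 in 2D. It did not pass with all arrays (log2 fold change 0.12, limma adjusted p = 0.164) but did without 3D replicate 2 (0.18, limma adjusted p = 0.0228). SLC25A29, a carrier of basic amino acids, had a log2 fold change of 0.17, SLC25A44, a branched-chain amino acid carrier, of 0.01, SLC25A45 of -0.11 and SLC25A48 of -0.16. SLC25A48 was called lower without 2D replicate 5, 3D replicate 2 or 3D replicate 4 (limma adjusted p 0.0349 to 0.0432), and SLC25A45 without 2D replicate 5 (limma adjusted p = 0.0421).

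Of 9 carriers of cofactors, nucleotides and glutathione, 2 were higher, 1 lower and 6 did not pass. That is 33.3% called, beside 42.7% of all genes. SLC25A33, a carrier of pyrimidine nucleotides into the matrix, had 10.43, 10.61 and 10.71 in 3D, against 9.67, 9.73 and 10.12 in 2D. All 3D arrays stood above all 2D arrays, by 1.68-fold on average (log2 fold change 0.74, standard error 0.08, limma adjusted p = 3.31e-06). It was measured by 1 probe set, with the suffix _s_at. SLC25A16, linked to coenzyme A supply in yeast, had 8.60, 8.85 and 8.93 in 3D, against 8.34, 8.52 and 8.62 in 2D. The ranges met at 1 array of each group (log2 fold change 0.34, standard error 0.07, limma adjusted p = 0.000734). The further probe sets of SLC25A16 did not pass, with -0.01 and 0.18, so its rise rests on 1 of 3 probe sets. The mean of the 3 did not pass either (0.17, limma adjusted p = 0.0566).

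SLC25A42, which exchanges coenzyme A for adenine nucleotides, was dim and lower, with 6.34, 6.40 and 6.52 in 3D, against 6.52, 6.62 and 6.85 in 2D (log2 fold change -0.22, standard error 0.06, limma adjusted p = 0.00654). The ranges just touched. SLC25A39, a glutathione carrier, had 9.86, 9.94 and 10.00 in 3D, against 9.83, 10.04 and 10.10 in 2D, and did not pass (log2 fold change -0.05, standard error 0.06, limma adjusted p = 0.502). Its paralogue SLC25A40 had -0.16 (standard error 0.07, limma adjusted p = 0.0879) by its brightest probe set, which passed without 2D replicate 2 (-0.19, limma adjusted p = 0.0414), while 1 of its 5 probe sets was called higher. SLC25A17 of the peroxisome had a log2 fold change of -0.07, and SLC25A26, the carrier of S-adenosylmethionine, of -0.05. A dimmer probe set of SLC25A26 was called lower (-0.22, limma adjusted p = 0.0148), and the dimmest of its 3 did not pass. SLC25A32, which carries folate or FAD, had a log2 fold change of -0.16, and SLC25A36, a pyrimidine nucleotide carrier, of -0.16.

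Iron reaches the matrix through the mitoferrins. SLC25A37, mitoferrin 1, known chiefly from erythroid cells, had 10.87, 10.93 and 10.99 in 3D, against 10.51, 10.66 and 10.72 in 2D. The groups were apart by 0.28 (log2 fold change, standard error 0.05, limma adjusted p = 0.000196). A further probe set gave 0.51 without overlap, and the dimmest of the 3 did not pass. SLC25A28, mitoferrin 2, was dim and did not pass (log2 fold change -0.08, standard error 0.09, limma adjusted p = 0.541).

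**Figure D4:**
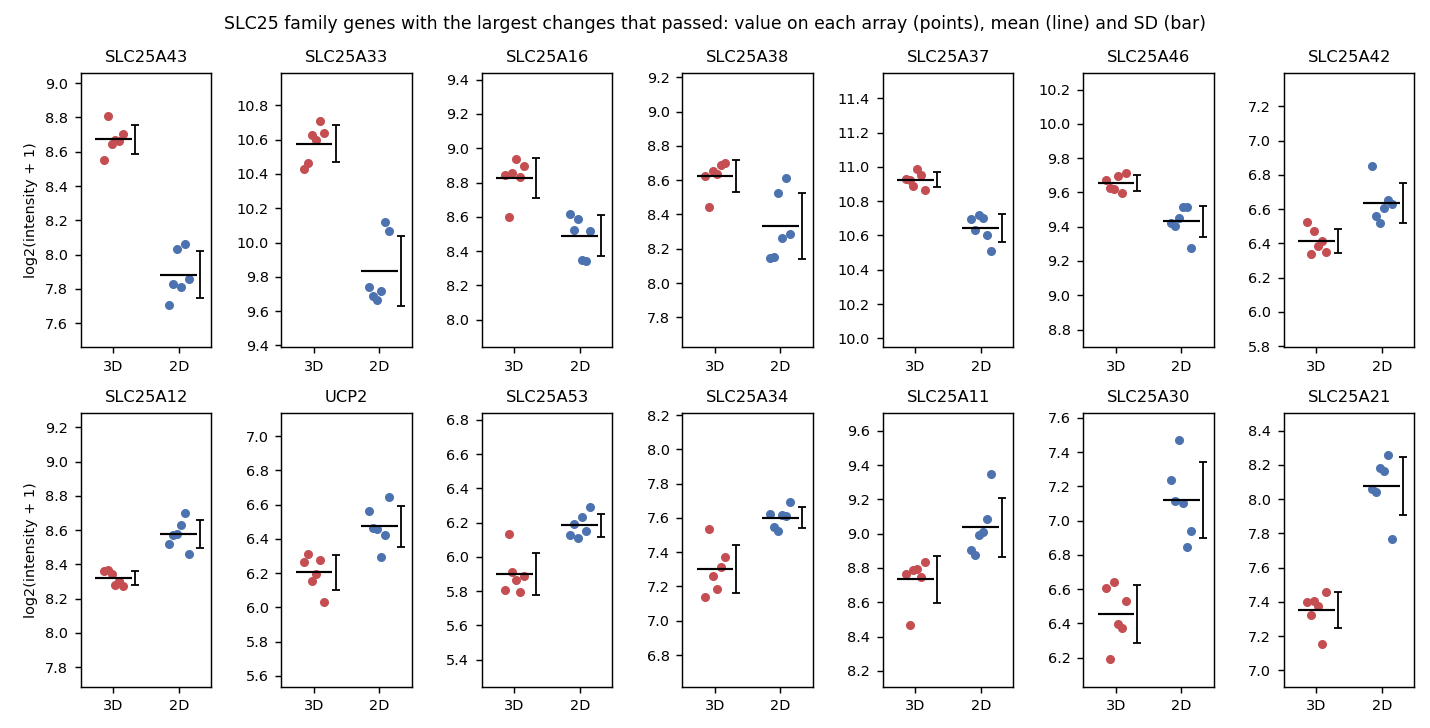
Log2(intensity + 1) on each of the 6 3D arrays (left, red) and 6 2D arrays (right, blue) for the 14 called members with the largest change; lines are group means, bars are SD, and every panel spans the same number of log2 units. SLC25A43, SLC25A33, SLC25A37 and SLC25A46 separate with 3D on top, and SLC25A12, SLC25A11, SLC25A30 and SLC25A21 with 2D on top.

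Uncoupling proteins and their relatives gave 1 higher and 2 lower of 6, 50% called beside 42.7% of all genes. SLC25A30, a carrier first described in kidney, had 6.19, 6.47 and 6.64 in 3D, against 6.84, 7.11 and 7.47 in 2D. It was lower on every 3D array than on any 2D array, by 0.632 times on average (log2 fold change -0.66, standard error 0.10, limma adjusted p = 6.14e-05), and with the RNA control ratio in the model by -1.05. Its mean level lay within the range of the markers of other cell types, and its further probe set fell by 0.18. UCP2, the most widely expressed of the uncoupling proteins, was dim as well, with 6.03, 6.23 and 6.31 in 3D, against 6.30, 6.46 and 6.64 in 2D (log2 fold change -0.27, standard error 0.06, limma adjusted p = 0.00334). Its other probe set did not pass (-0.11, limma adjusted p = 0.171).

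UCP1, the uncoupler of brown fat, had 5.80, 5.97 and 6.09 in 3D, against 5.98, 6.03 and 6.08 in 2D, and did not pass (log2 fold change -0.06, standard error 0.05, limma adjusted p = 0.322). UCP3, the muscle form, had 5.55, 5.63 and 5.72 in 3D, against 5.35, 5.57 and 5.70 in 2D, and exceeded the controls on 2 of 6 3D arrays and 1 of 6 2D arrays. Both lay among the markers of other cell types. SLC25A27, the brain relative also called UCP4, was the 1 dim member called higher (log2 fold change 0.21, standard error 0.07, limma adjusted p = 0.0234). Its call ended with quantile normalization (0.19, limma adjusted p = 0.0596) and when 2D replicate 6 (0.17, limma adjusted p = 0.0508) or 3D replicate 4 (0.20, limma adjusted p = 0.0505) was left out. SLC25A14, or UCP5, did not pass (0.03, standard error 0.05).

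All 3 outer membrane members were called, beside 42.7% of all genes. MTCH1, a carrier homologue linked to apoptosis, had 13.03, 13.05 and 13.13 in 3D, against 12.79, 12.86 and 12.89 in 2D, without overlap (log2 fold change 0.21, standard error 0.04, limma adjusted p = 0.000625). MTCH2, which inserts proteins into the outer membrane and receives the apoptotic protein BID, had 11.64, 11.69 and 11.72 in 3D, against 11.76, 11.80 and 11.90 in 2D. The groups were separate in the other direction (log2 fold change -0.12, standard error 0.04, limma adjusted p = 0.0293). That call was near the threshold and ended without any 1 of 2D replicates 1 and 3 and 3D replicates 3, 4 and 5 (limma adjusted p 0.0513 to 0.0592), with median centring (limma adjusted p = 0.0864), with the mean of its probe sets (0.0667) and with its brightest probe set that lacks a suffix (0.0690). SLC25A46, which shapes mitochondria and lipid traffic, had 9.59, 9.65 and 9.71 in 3D, against 9.28, 9.44 and 9.52 in 2D (log2 fold change 0.22, standard error 0.05, limma adjusted p = 0.00218). No array of 3D fell within the 2D range.

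Members of little-studied function included the gene raised most. SLC25A43, whose substrate is not established, had 8.55, 8.66 and 8.81 in 3D, against 7.71, 7.84 and 8.06 in 2D. All 6 3D arrays lay above all 2D arrays, by 1.73-fold on average (log2 fold change 0.79, standard error 0.06, limma adjusted p = 7.86e-08). Of its 4 probe sets, 3 were higher, with log2 fold changes of 0.69 to 0.88, and the dimmest did not pass. SLC25A34 had 7.14, 7.29 and 7.53 in 3D, against 7.52, 7.61 and 7.69 in 2D (log2 fold change -0.30, standard error 0.06, limma adjusted p = 0.00123), with 1 3D array inside the 2D range. SLC25A53, a dim member, had 5.79, 5.88 and 6.13 in 3D, against 6.11, 6.17 and 6.29 in 2D (log2 fold change -0.28, standard error 0.06, limma adjusted p = 0.00123). SLC25A35 (0.05) and SLC25A47, known from liver (-0.10), were dim and did not pass, though SLC25A47 was called lower without 3D replicate 2 (limma adjusted p = 0.0378). SLC25A10, the dicarboxylate carrier, and SLC25A20, the carnitine/acylcarnitine carrier, were not analysed here.

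Of the 96 probe sets of the family, 19 were higher and 21 lower, 41.7% in all beside 38.7% of all probe sets. Of 31 members with several probe sets, 0 had calls in both directions. The called members had 28 further probe sets, of which 14 were called in the same direction and 14 did not pass. The dimmest probe set of SLC25A34, among those called, exceeded the control level on 0 arrays. For 23 of 46 members the standing probe set had the suffix _s_at, which can also pick up relatives.

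Paralogous members were also set against each other by their log2 ratio within each array, which shows unequal change and not which of a pair moved. The 8 pairs were picked with the members' changes known, so their ratios are given as a description, without p-values. SLC25A33/SLC25A36 shifted most, with ratios of 1.98 to 2.58 in 3D and 0.91 to 1.92 in 2D (mean difference 0.91). Separate ranges were also found for SLC25A13/SLC25A12, at 0.78 to 1.03 in 3D and 0.36 to 0.59 in 2D (mean difference 0.44). Both genes of this pair stand by a probe set with the suffix _s_at, so which isoform each reports is uncertain. MTCH1/MTCH2, which share the outer membrane, had 1.32 to 1.49 in 3D and 0.97 to 1.11 in 2D (mean difference 0.33).

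SLC25A37/SLC25A28 also separated (mean difference 0.36), but without 2D replicate 6 and 3D replicate 2, the arrays most often apart from their group among the members, the difference was 0.23. SLC25A5/SLC25A6 had a mean difference of 0.33, SLC25A5/SLC25A4 of 0.20 and SLC25A24/SLC25A23 of 0.26, each with overlapping ranges. SLC25A39/SLC25A40 overlapped as well, at -0.10 to 0.30 in 3D and -0.17 to 0.10 in 2D (mean difference 0.11).

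**Figure D5:**
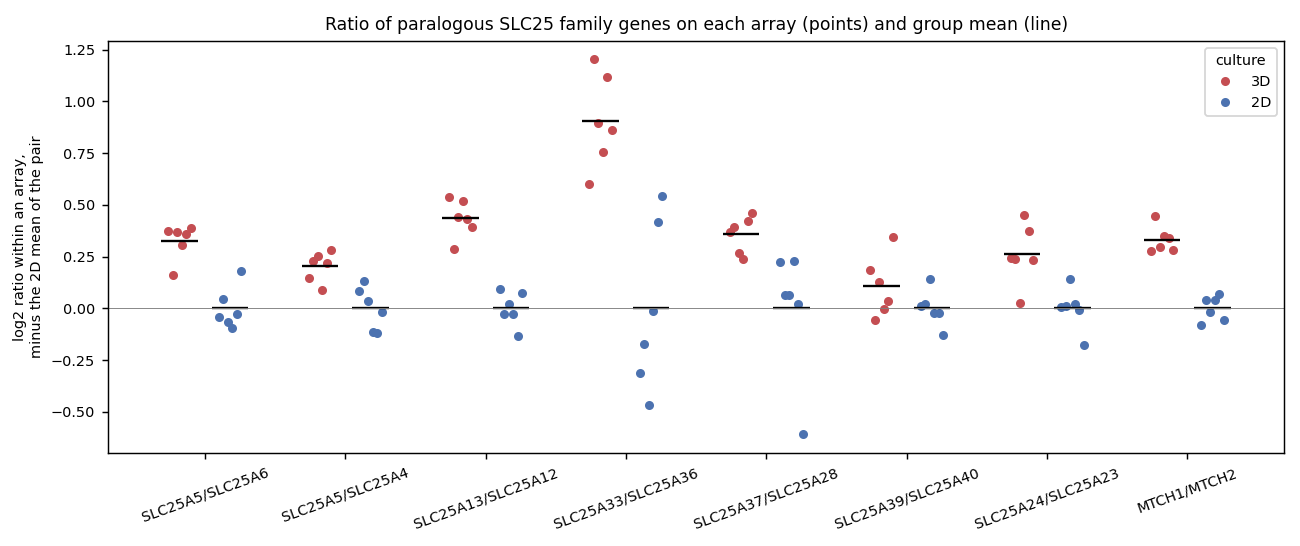
Log2 ratio of paralogous members within each array, with the 2D mean of each pair set to 0 (vertical), for 8 pairs; red points are the 6 3D arrays (left), blue points the 6 2D arrays (right) and lines the group means. The 3D points lie above all 2D points for SLC25A13/SLC25A12, SLC25A33/SLC25A36, SLC25A37/SLC25A28 and MTCH1/MTCH2, and mix with them for SLC25A39/SLC25A40.

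Mitochondrial genes that work beside the carriers were put in 7 lists, chosen with earlier results of these data known. Their counts are therefore given as a description. Of the 73 measured genes, 26 were higher (35.6%, beside 19.8% of all genes) and 9 lower (12.3%, beside 22.9%). Their median log2 fold change was 0.04. Among the 60 of them that were brighter, 24 were higher (40%) and 9 lower (15%), beside 32% and 22.6% of brighter genes. With quantile normalization 19 of the 73 were higher and 14 lower, beside 2625 higher and 3385 lower of all 15115 genes. The shares of all genes, 19.8% higher and 22.9% lower, also stand beside the counts of each list below. Of 14 genes that import carriers, 6 were higher and 1 lower, with a median of 0.15: TOMM5, a small subunit of the outer membrane pore, rose by 0.38, and the intermembrane chaperones TIMM8B and TIMM8A rose by 0.34 and 0.33. TIMM22, the channel that inserts carriers, did not pass (-0.02, limma adjusted p = 0.814).

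Among 15 other mitochondrial membrane transporters, 5 were higher and 2 lower, with a median of 0.09. The pyruvate carrier subunit MPC1 fell by 1.48, and VDAC1, the main outer membrane porin, rose by 0.26. The ion exchanger LETM1 rose by 0.41 but was dim, with overlapping ranges (6.14 to 6.54 in 3D, 5.87 to 6.23 in 2D). A list of 10 shuttle enzymes had 3 higher and 2 lower, with a median of -0.02. It held enzymes of the malate-aspartate and citrate shuttles, and GPD1 and GPD2 of the glycerol phosphate shuttle. GPD2, the mitochondrial glycerol phosphate dehydrogenase, rose by 0.68 but was dim, with overlapping ranges (6.45 to 7.30 in 3D, 6.08 to 6.64 in 2D). IDH2 rose by 0.32 and ACLY, which splits the exported citrate, by 0.28.

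In one-carbon metabolism 4 of 9 genes were higher (44.4%, beside 19.8% of all genes) and 0 lower by limma, with a median of 0.14. Before adjustment 0 were lower too, but GLDC and MTHFD2L exceeded the control level on 0 arrays of either group. MTHFD2, a folate dehydrogenase of the matrix, rose by 1.07 on the log2 scale, MTHFD1L by 0.76 and GCSH, a subunit of the glycine cleavage system, by 0.58. The folate carrier SLC25A32 did not pass. Iron and haem enzymes had 2 higher and 2 lower of 7, with a median of -0.03. ISCU, the iron-sulphur scaffold, fell by 0.25, while NFS1, its sulphur donor, rose by 0.23. FECH, which inserts iron into haem, rose by 0.20 with overlapping ranges.

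Regulators of mitochondrial biogenesis had 2 higher and 0 lower of 8 by limma, again 0 lower before adjustment, with a median of 0.07. TFB1M, a mitochondrial rRNA methyltransferase, rose by 0.52 and the coactivator PPRC1, whose ranges overlapped, by 0.24. Genes of mitochondrial shape and apoptosis had 4 higher and 2 lower of 10, with a median of 0.03. BAK1, a pore-forming death effector, rose by 0.99, the fission GTPase DNM1L by 0.45 and PPIF, a regulator of the permeability transition, by 0.32. With the RNA control ratio in the model, 20 neighbour genes were higher and 8 lower, beside 1907 higher and 1259 lower of all 15115 genes.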

How the data were processed

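RNA of MDCK cells was measured on 12 one-colour Affymetrix dog arrays, 6 of 3D and 6 of 2D culture, grouped by the labels. For each probe set the authors deposited 1 intensity on a linear scale, made with GCRMA per the submitters' processing notes. No source used here gives its version or settings. They were used as deposited, as log2(intensity + 1) of the deposited intensity, so folds of dim genes are understated. The 111 control probe sets were left out, leaving 42924. Genes were named from the platform annotation (29254 probe sets with 1 gene, 439 with several, 13231 with none), and the probe set with the highest mean stood for a gene. Culture was the only term in limma 3.58.1 (R 4.3.3), two-sided, with Benjamini-Hochberg adjustment over all probe sets at 0.05.

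Members, neighbour lists and pairs were chosen with earlier results of these data known. Full values are given for the 14 called members with the largest change and for a fixed set: SLC25A1, SLC25A3 to SLC25A6, SLC25A11 to SLC25A13, SLC25A15, SLC25A37, SLC25A39, SLC25A46, the uncoupling proteins and both MTCH genes. SLC25A10 and SLC25A20 also belonged to it but were not analysed here. Of each neighbour list up to 3 called genes with the largest change are named. Genes named outside this rule (TIMM22, markers) were chosen after their values were seen. Alternatives were a filter, quantile normalization, median centring, a pseudocount of 16, a trend and robust prior, the replicate number as a block, array weights, other probe set choices, the RNA control ratio as a covariate, a 1.5-fold minimum and leaving out arrays. Figures used matplotlib 3.10.9. The number of arrays limits the precision.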

Additional observations from a re-analysis of the deposited data

Results flagged for a closer look

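On 10 occasions among 92 groups of 6 values, 1 array stood apart from the other 5 by a gap past Dixon's critical value, and chance gives this in about 1 in 20 groups. Of these values 6 came from 3D replicate 2, 3 from 2D replicate 6 and 1 from 3D replicate 5. The RNA control ratio of 3D replicate 2 was -0.88, the lowest of 3D, and that of 2D replicate 6 was -0.98. On 3D replicate 2, the log2 value was low for SLC25A11 (8.46, next 8.75), SLC25A16 (8.60, next 8.83), SLC25A24 (9.71, next 9.86) and SLC25A38 (8.45, next 8.62), and high for SLC25A53 (6.13, next 5.91) and SLC25A6 (13.57, next 13.42). On 2D replicate 6, it was low for SLC25A24 (9.50, next 9.77) and SLC25A3 (13.17, next 13.28) and high for SLC25A28 (6.45, next 5.98). On 3D replicate 5, SLC25A31 was high (5.65, next 5.48), below the control level of that array. Without both 3D replicate 2 and 2D replicate 6, 11 members were higher and 11 lower: MTCH2 and SLC25A27 were no longer called, and SLC25A15 and SLC25A48 were.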

How the results depend on the processing

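The counts of 11 higher and 11 lower members became 5 and 4 with the RNA control ratio in the model and 2 and 2 with a minimum change of 1.5-fold. Quantile normalization gave 8 higher and 15 lower, so 34.8% of the calls were higher in place of 50%: SLC25A1, SLC25A13, SLC25A27 and SLC25A31 were lost, and SLC25A3, SLC25A17, SLC25A23, SLC25A26 and SLC25A40 were gained, all lower. Leaving out 1 array gave 10 to 12 higher and 10 to 13 lower members, and moved called changes by 0.794 to 1.24 times. With quantile normalization 19 neighbour genes were higher and 14 lower, in place of 26 and 9. Of all 15115 genes, 2988 were higher and 3465 lower. These counts became 1907 and 1259 with the ratio, 725 and 156 with the 1.5-fold minimum, and 2625 and 3385 with quantile normalization. With the brightest probe set that has no _s_at or _x_at suffix, SLC25A16 had no rise (-0.0082, standard error 0.08, limma adjusted p = 0.943); the cause was not tested. The filter above a log2 value of 6, median centring, the pseudocount of 16, the trend and robust prior, array weights and the mean of probe sets gave 10 or 11 higher and 10 to 12 lower members. The labels do not say what replicate numbers share, and they were not treated as pairs: correlations of same-numbered arrays were 0.00 to 0.36, not all over 0.1, and 4 2D and 1 3D arrays correlated best with their own number. With the replicate block 10 members were higher and 11 lower, and SLC25A1 was lost (limma adjusted p = 0.0516). No scaling moved the median of all genes by over 0.03 on the log2 scale. Signal over background limits SLC25A31 and UCP3, which exceeded the control level on some arrays only.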
